A study of Homo sapiens with 3 samples.

Results

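The 6 genes described here encode the angiopoietin-like proteins ANGPTL2, ANGPTL4, ANGPTL6 and ANGPTL8, lipoprotein lipase (LPL) and its maturation factor LMF1. They were chosen by gene name from the 61533 rows of the expression tables, and each name matched 1 row. The tables hold RNA sequencing of poly(A)-selected transcripts from Hep3B, an established human line derived from a liver tumour and labelled wild type, grown with fetal bovine serum. The 3 libraries, 1 per condition, came from cells at 1% oxygen with sodium oxamate (hypoxia with oxamate, 48 hours per the design text), from cells at 1% oxygen alone (hypoxia), and from cells at 20% oxygen (normoxia). Sodium oxamate inhibits lactate dehydrogenase, the enzyme that turns pyruvate into lactate, and its dose is not given in the sources used here. Since each condition has 1 library, differences cannot be set against the spread between replicates, and p-values are not given.

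Lipoprotein lipase hydrolyses the triglycerides of very-low-density lipoproteins and chylomicrons at the wall of capillaries, mainly in fat, muscle and heart, and the adult liver makes little of it. The enzyme becomes active only after folding in the endoplasmic reticulum with the help of LMF1, and it is then held in check by secreted angiopoietin-like proteins. ANGPTL4 inactivates it and is known as a target of both hypoxia-inducible factors (HIF) and the fatty acid receptors of the PPAR family. ANGPTL8 is made by liver and fat after feeding and takes part in the control of the lipase. ANGPTL2, a secreted glycoprotein linked to inflammation and tumour spread, and ANGPTL6, a circulating protein that in mice counters weight gain, are not known as inhibitors of the lipase. The gene descriptions in the tables name a fibrinogen-type C-terminal domain for ANGPTL2, ANGPTL4 and ANGPTL6 and none for ANGPTL8.

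The members fell into 4 kinds of pattern. ANGPTL2 and ANGPTL4 were low in normoxia and among the genes with the highest ratios in hypoxia, and both stayed high with oxamate. ANGPTL8 was the most abundant of the 6 in normoxia, differed little in hypoxia, and was 5.70-fold lower in hypoxia with oxamate than in hypoxia. LMF1 was low in all 3 libraries and within 2-fold between them. ANGPTL6 had 14 fragments or fewer in each library and LPL had 0.

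Levels are given in FPKM, the deposited unit, which scales fragments to exon length and a library total and so lets genes be compared with each other. Whole fragments per gene were recovered from these values, and the libraries held 24826365 (hypoxia with oxamate), 26309340 (hypoxia) and 27412147 (normoxia) of them. The totals implied by the deposited values were 1.02, 1.06 and 0.938 times these sums in the same order, so the deposited values are not scaled to the plain sums. Ratios between conditions use fragments after trimmed-mean-of-M scaling. The intervals in brackets are 95% intervals for counting error alone (exact Poisson for levels, exact conditional binomial for ratios) and do not cover differences between cultures. To be called higher or lower, a gene needed a difference of 2-fold or more and 50 or more fragments in its higher library. The hepatocyte markers fixed for this cell line were present, with 11 of 11 at 50 fragments or more in each library.

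The promoters of 3 genes are shown because their genes carry the main differences. Each is the 250 bases before the RefSeq start site (GRCh38.p14), 5′ to 3′ on the strand of the gene, and capitals mark the HIF core letters ACGTG or GCGTG on either strand. The windows are chr9:127122636-127122885 on the minus strand for ANGPTL2, chr19:8363905-8364154 on the plus strand for ANGPTL4, and chr19:11239369-11239618 on the plus strand for ANGPTL8. For ANGPTL4 and ANGPTL8 these start sites lie downstream of where the tables begin the gene.
ANGPTL2: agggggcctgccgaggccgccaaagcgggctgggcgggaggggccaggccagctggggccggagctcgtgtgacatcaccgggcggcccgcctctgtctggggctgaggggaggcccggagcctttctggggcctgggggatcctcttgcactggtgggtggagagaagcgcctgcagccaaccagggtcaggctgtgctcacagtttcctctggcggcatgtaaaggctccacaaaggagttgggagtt
ANGPTL4: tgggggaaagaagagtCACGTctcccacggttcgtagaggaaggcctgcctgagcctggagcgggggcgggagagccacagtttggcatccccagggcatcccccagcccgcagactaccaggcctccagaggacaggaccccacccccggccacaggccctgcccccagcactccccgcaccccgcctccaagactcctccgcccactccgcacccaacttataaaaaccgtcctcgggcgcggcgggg
ANGPTL8: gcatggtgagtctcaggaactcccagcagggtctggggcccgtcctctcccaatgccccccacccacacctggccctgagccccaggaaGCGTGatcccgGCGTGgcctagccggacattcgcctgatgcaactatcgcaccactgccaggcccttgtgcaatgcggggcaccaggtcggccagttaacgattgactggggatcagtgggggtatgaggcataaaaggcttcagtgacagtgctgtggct

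The ANGPTL4 window holds 1 such core, ACGTG on the opposite strand, whose first printed base lies 234 bases before the start site. The ANGPTL8 window holds 2, both GCGTG, beginning 161 and 150 bases before the start. The ANGPTL2 window holds neither set of letters, which says nothing of sites elsewhere. Of 35116 windows of the same length in the RefSeq table, 18.5% hold ACGTG and 32.2% hold GCGTG on either strand, and 43.2% hold at least 1 of them. The E-box CACGTG, which contains ACGTG, stands in 6.34% of all windows, and the nuclear receptor half-site AGGTCA in 12.1%, and neither stands in these 3. Windows were found for 5 of the 6 genes, all but LPL. Several start sites are listed for LMF1 and ANGPTL6, and both genes have a GCGTG in at least 1 window.

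ANGPTL2 (ENSG00000136859_10) spans 127087348 to 127122635 on the minus strand of chromosome 9 (hg38), with 3625 bases of exon. It had 25.6 FPKM in hypoxia with oxamate (24.6 to 26.6, from 2346 fragments), 28.9 FPKM in hypoxia (27.9 to 30.0, from 2915 fragments) and 0.343 FPKM in normoxia (0.235 to 0.484, from 32 fragments). Both hypoxic libraries were thus high and the normoxic library low, with counting intervals far apart. The gene lay above 92.8%, 94.1% and 41.4% of the 19871 protein-coding genes in hypoxia with oxamate, hypoxia and normoxia. Its ratio was 85.2 for hypoxia against normoxia (60.2 to 125), rank 15 from the top of 13554 genes by log2 ratio, and 75.8 for hypoxia with oxamate against normoxia (53.6 to 111). Between the hypoxic libraries it was 0.890 (0.843 to 0.940) for hypoxia with oxamate against hypoxia, which is within 1.5-fold. With a pseudocount of 1 added to FPKM, the log2 ratio of hypoxia to normoxia was 4.48, against 6.41 without one, since the denominator is small.

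ANGPTL2 lies inside RALGPS1, a gene on the opposite strand, and its exons share 0 bases with those of any other gene in GENCODE 29. RALGPS1 had 383 fragments in hypoxia with oxamate, 605 in hypoxia and 282 in normoxia, a ratio of 2.01 (1.74 to 2.32) for hypoxia against normoxia. The difference in ANGPTL2 was therefore many times that of the gene around it.

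ANGPTL4 (ENSG00000167772_12) spans 8363289 to 8374370 on the plus strand of chromosome 19, with 2475 bases of exon. It had 32.4 FPKM in hypoxia with oxamate (31.1 to 33.9, from 2031 fragments), 24.6 FPKM in hypoxia (23.4 to 25.8, from 1692 fragments) and 0.550 FPKM in normoxia (0.383 to 0.765, from 35 fragments). The normoxic library was again the low one, and the library with oxamate stood above the one in hypoxia beyond counting error. The ratio was 45.2 for hypoxia against normoxia (32.4 to 65.1), rank 26 of 13554, and 60.0 for hypoxia with oxamate against normoxia (43.0 to 86.4). For hypoxia with oxamate against hypoxia it was 1.33 (1.24 to 1.42), short of the 2-fold rule. With a pseudocount of 1 on FPKM, the log2 ratio of hypoxia to normoxia was 4.05, against 5.50 without one. Its exons share 1 base with an antisense gene in GENCODE 29.

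ANGPTL6 (ENSG00000130812_11; chromosome 19, 10092338 to 10102678, minus strand) had 14 fragments in hypoxia with oxamate, 11 in hypoxia and 3 in normoxia. These correspond to 0.268 FPKM (0.147 to 0.450), 0.192 FPKM (0.0957 to 0.343) and 0.0565 FPKM (0.0117 to 0.165), and the 3 intervals overlap. The ratio of hypoxia to normoxia was 3.43 (0.905 to 19.1), and that of hypoxia with oxamate to hypoxia was 1.41 (0.594 to 3.43), so no difference between neighbouring conditions was detectable at this depth. Hypoxia with oxamate against normoxia gave 4.83 (1.35 to 26.2) on 3 normoxic fragments. In GENCODE 29, 20.3% of its exon bases also belong to SHFL on the opposite strand, listed there as C19orf66, which had 621, 357 and 661 fragments in hypoxia with oxamate, hypoxia and normoxia. The protocols do not say whether strand was kept, so fragments on the shared bases cannot be told apart from those of SHFL. How many of the ANGPTL6 fragments come from SHFL was not tested.

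ANGPTL8 (ENSG00000130173_13) spans 11237450 to 11241943 on the plus strand of chromosome 19, with 1223 bases of exon. It had 3.07 FPKM in hypoxia with oxamate (2.49 to 3.75, from 95 fragments), 17.6 FPKM in hypoxia (16.2 to 19.1, from 599 fragments) and 23.2 FPKM in normoxia (21.6 to 25.0, from 730 fragments). Here the library with oxamate was the low one, while hypoxia and normoxia lay near each other with intervals that do not overlap. The gene lay above 60.0%, 89.2% and 90.5% of protein-coding genes in hypoxia with oxamate, hypoxia and normoxia. It was 5.70-fold lower in hypoxia with oxamate than in hypoxia (4.58 to 7.15), the rank of 32 from the bottom of 13739 genes. It was 7.43-fold lower than in normoxia (5.99 to 9.30), while the ratio of hypoxia to normoxia was 0.767 (0.687 to 0.856).

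ANGPTL8 lies within DOCK6, a gene on the opposite strand, and 350 of its 1223 exon bases, or 28.6%, are also exon of DOCK6 in GENCODE 29. DOCK6 had 1117 fragments in hypoxia with oxamate, 1294 in hypoxia and 1490 in normoxia. The ratio of DOCK6 was 0.955 (0.881 to 1.04) for hypoxia with oxamate against hypoxia, so the gene that shares these bases was not lower by a like amount. How much of the ANGPTL8 count comes from DOCK6 was not tested.

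LPL (ENSG00000175445_17; chromosome 8, 19901717 to 19967259, plus strand) was listed at 0 in all 3 libraries. The floor for a count of 0 was set at 3 fragments, close to a one-sided 95% Poisson limit and below the upper end of the two-sided interval used for the other genes. For its exon length it corresponds to 0.0287 FPKM in hypoxia with oxamate, 0.0261 FPKM in hypoxia and 0.0282 FPKM in normoxia. No ratio is given. The enzyme that the inhibitors act on was thus below detection as a transcript in the cells that carried ANGPTL4 and ANGPTL8 mRNA.

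LMF1 (ENSG00000103227_19; chromosome 16, 853634 to 981318, minus strand) had 0.958 FPKM in hypoxia with oxamate (0.829 to 1.10, from 199 fragments), 1.17 FPKM in hypoxia (1.03 to 1.32, from 267 fragments) and 1.51 FPKM in normoxia (1.35 to 1.68, from 319 fragments). The level was highest in normoxia and lowest with oxamate, with overlapping intervals for the hypoxic libraries. Its ratio was 0.782 for hypoxia against normoxia (0.662 to 0.923), 0.825 for hypoxia with oxamate against hypoxia (0.683 to 0.994) and 0.645 for hypoxia with oxamate against normoxia (0.538 to 0.773). None of these reaches 2-fold. Of its exon bases, 4.79% are shared with other genes in GENCODE 29. Its paralog LMF2, for which no role in lipase folding is assumed here, had 18.0, 18.2 and 22.4 FPKM in hypoxia with oxamate, hypoxia and normoxia.

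**Figure D1:**
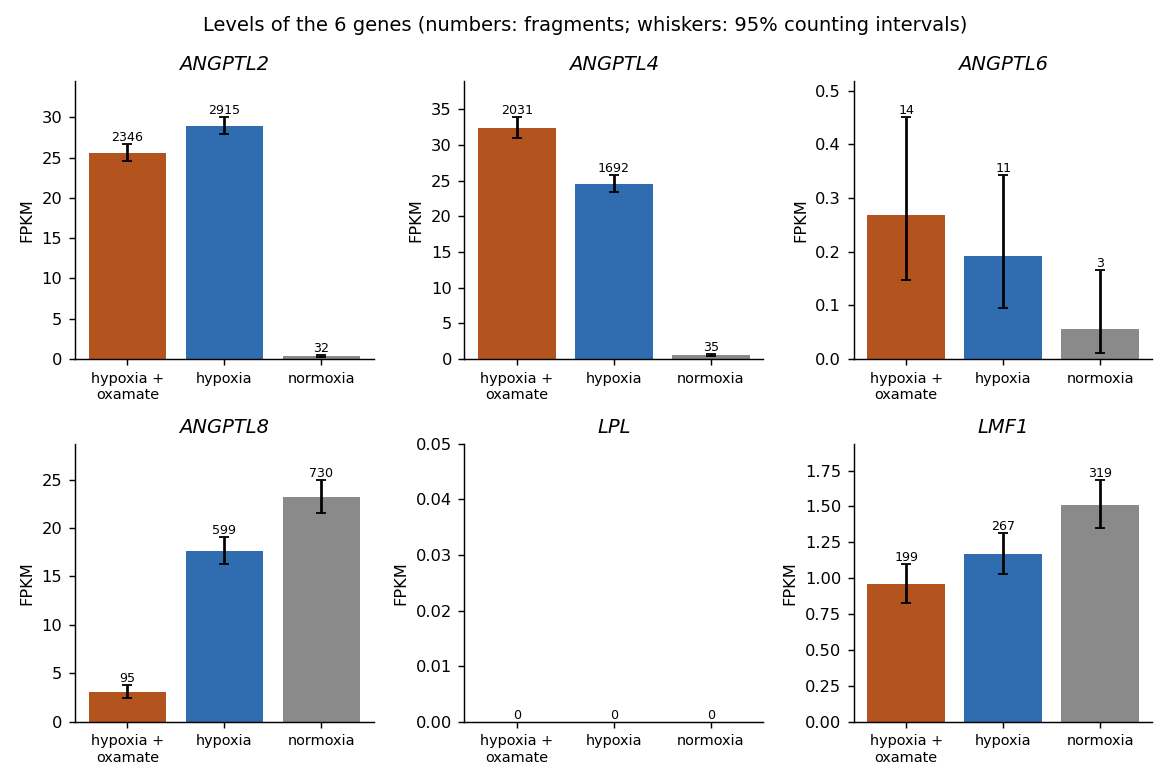
Levels of the 6 genes in FPKM, 1 panel per gene with its own linear axis from 0, in hypoxia with oxamate, hypoxia and normoxia. Whiskers are 95% Poisson intervals and numbers are fragments: ANGPTL2 and ANGPTL4 are high in both hypoxic libraries, ANGPTL8 is low in the library with oxamate, and LPL, drawn without whiskers, is at 0 in all 3.

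Within each library the order of the levels differed. In hypoxia with oxamate, ANGPTL4 came first at 32.4 FPKM, followed by ANGPTL2 at 25.6 FPKM and ANGPTL8 at 3.07 FPKM. In hypoxia, ANGPTL2 came first at 28.9 FPKM, followed by ANGPTL4 at 24.6 FPKM and ANGPTL8 at 17.6 FPKM. In normoxia, ANGPTL8 came first at 23.2 FPKM and LMF1 next at 1.51 FPKM, with ANGPTL4 and ANGPTL2 below 1 FPKM. The counting intervals of neighbours in these orders did not overlap, except for ANGPTL4 and ANGPTL2 in normoxia, and no spread between cultures is known.

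Summed over the 4 angiopoietin-like genes described here, the level was 61.4 FPKM in hypoxia with oxamate, 71.3 FPKM in hypoxia and 24.2 FPKM in normoxia. ANGPTL8 took 5.00% of that sum in hypoxia with oxamate, 24.7% in hypoxia and 96.1% in normoxia. ANGPTL4 took 52.9%, 34.5% and 2.28% in the same libraries, and ANGPTL2 took 41.7%, 40.6% and 1.42%. These shares refer to the 4 genes alone, not to the whole family, and would differ with other members counted.

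**Figure D2:**
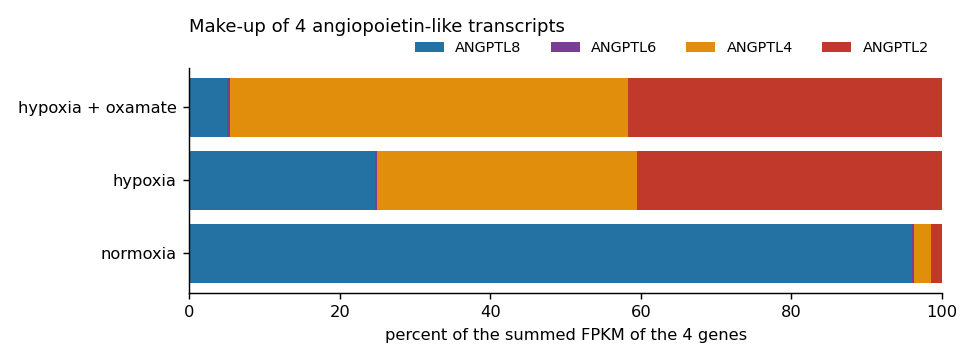
Share of each of 4 angiopoietin-like genes in their summed FPKM, as stacked horizontal bars for hypoxia with oxamate, hypoxia and normoxia. ANGPTL8 makes up 5.00%, 24.7% and 96.1% from top to bottom, and most of the rest in the hypoxic libraries is ANGPTL4 and ANGPTL2.

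Counted by the 2-fold rule, 2 of the 6 genes were higher and 0 lower in hypoxia than in normoxia. Only 4 of the 6 had enough fragments for the rule, and ANGPTL6 and LPL could not be called in any comparison. Among all 13554 genes with at least 50 fragments in either library, 10.8% were higher and 8.06% lower. For hypoxia with oxamate against hypoxia, 0 of the 6 were higher and 1, ANGPTL8, was lower, while 5.92% of 13739 genes were higher and 5.07% lower. For hypoxia with oxamate against normoxia, ANGPTL2 and ANGPTL4 were higher and ANGPTL8 lower, beside 15.4% of 13597 genes higher and 15.3% lower. ANGPTL2 and ANGPTL4 reached 50 fragments only in the hypoxic libraries, so they could pass in 1 direction only. The comparisons share libraries and are not independent of each other. Across all genes the median log2 ratio of hypoxia to normoxia was -0.11, and scaling by total fragments moved it to 0.04 and changed the count of genes from 1468 higher and 1093 lower into 1775 higher and 751 lower, with the calls of the 6 genes the same.

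**Figure D3:**
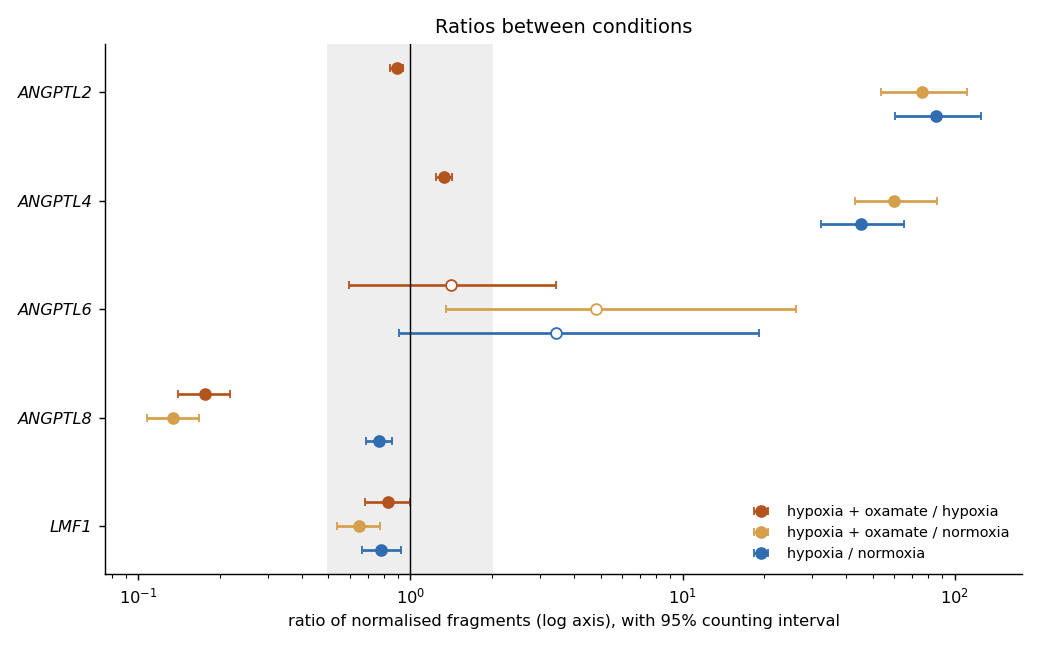
Ratios of normalised fragments on a log axis for the 5 genes with fragments, with 95% counting intervals, for hypoxia with oxamate over hypoxia, hypoxia with oxamate over normoxia, and hypoxia over normoxia. Open symbols have fewer than 50 fragments in both libraries, and the grey band spans less than 2-fold: ANGPTL2 and ANGPTL4 lie far to the right against normoxia and inside the band against hypoxia, and ANGPTL8 lies to the left with oxamate.

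**Figure D4:**
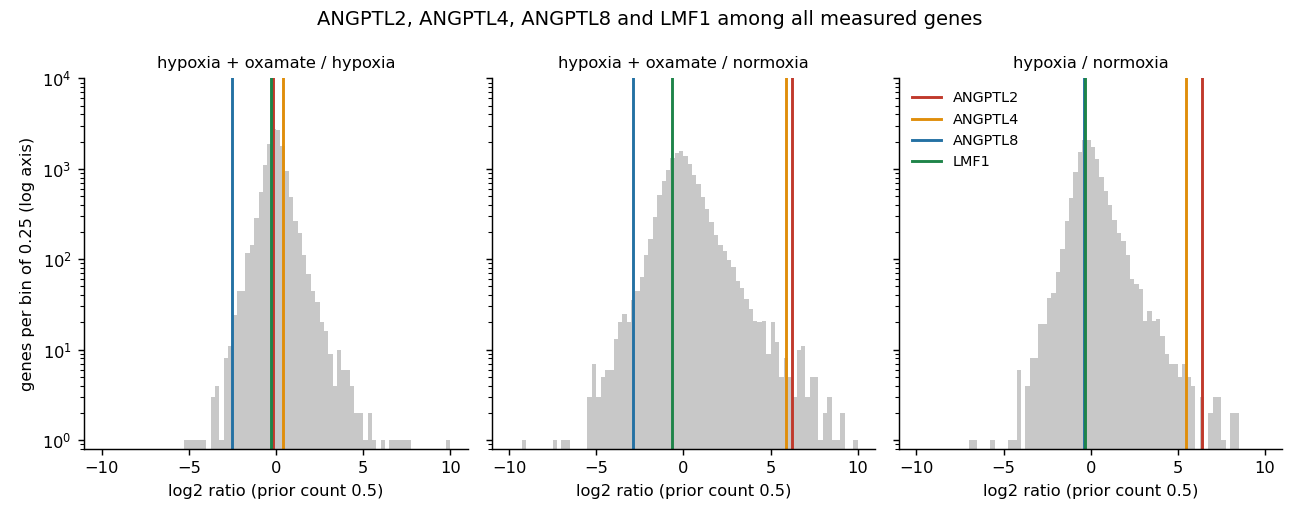
Distribution of log2 ratios (prior count 0.5) over all genes with at least 50 fragments in either library, as genes per bin of 0.25 on a log axis, for the 3 comparisons, with vertical lines for ANGPTL2, ANGPTL4, ANGPTL8 and LMF1. Against normoxia, ANGPTL2 and ANGPTL4 stand in the sparse right tail at ranks 15 and 26 in hypoxia, and LMF1 stays near the centre in all 3.

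Known HIF targets were counted beside ANGPTL4, and the part of HIF in its difference was not tested. Of 22 listed, 19 were higher in hypoxia than in normoxia and 0 lower, with a median log2 ratio of 2.48 beside -0.11 for all genes. Among all measured genes, 10.8% were higher and 8.06% lower. CA9, a carbonic anhydrase, was 27.6-fold higher (23.7 to 32.3), while P4HA2 and INSIG2 stood at 1.27 and 1.83. The ratios of ANGPTL4 and ANGPTL2 exceeded that of each of these 22 genes. With oxamate against hypoxia, 7 of 22 were higher and 0 lower (median 0.80, beside -0.01 for all genes). Of all measured genes, 5.92% were higher and 5.07% lower there. INSIG2 led with a ratio of 3.82, HILPDA followed with 2.94, and EPO and DDIT4 were at the low end with 0.572 and 0.726. In hypoxia with oxamate against normoxia, 22 of 22 were higher (median 2.84), beside 15.4% of all measured genes.

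Targets of the PPAR receptors were counted in the same way, and the part of these receptors in the difference of ANGPTL4 was not tested either. Of 14 with enough fragments among 16 listed, 5 were higher and 1 lower in hypoxia than in normoxia, with a median log2 ratio of 0.08. Among all measured genes, 10.8% were higher and 8.06% lower. PDK4, a kinase that shuts off pyruvate oxidation, was 7.29-fold higher (4.79 to 11.5), and VNN1, a pantetheinase, 6.89-fold higher (3.28 to 16.7). With oxamate against hypoxia, 0 of 14 were higher and 3 lower (median -0.52), beside 5.92% and 5.07% of all measured genes. Among the 3, PDK4 was 2.48-fold lower and FABP1, the liver fatty acid binding protein, 4.63-fold lower (4.11 to 5.23). At the high end were ACSL1 at 1.76 and CREB3L3 at 1.05, and ANGPTL4 had 1.33 in that comparison. Of the receptors themselves, PPARG was 3.66-fold higher in hypoxia than in normoxia (3.47 to 3.87), and PPARA and PPARD stood at 1.74 and 0.731.

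Regulators of lipid genes in liver were compared with ANGPTL8. MLXIPL, which encodes the carbohydrate-sensing factor ChREBP, had 486 fragments in hypoxia with oxamate, 580 in hypoxia and 2492 in normoxia. It was lower by the rule in hypoxia than in normoxia, at a ratio of 0.218 (0.198 to 0.238). With oxamate against hypoxia it stood at 0.927 (0.820 to 1.05). CEBPA, a factor of liver and fat cell identity, had 496, 2981 and 6073 fragments in hypoxia with oxamate, hypoxia and normoxia, and with oxamate lay 5.43-fold below hypoxia (4.94 to 5.99) and in hypoxia lay 2.18-fold below normoxia (2.09 to 2.28). SREBF1 and NR1H3, which encode the lipogenic factor SREBP1 and the oxysterol receptor LXR alpha, were at ratios of 0.661 (0.633 to 0.691) and 0.511 (0.464 to 0.561) with oxamate against hypoxia. CEBPA, SREBF1 and NR1H3 were thus lowest in the library where ANGPTL8 was lowest. So were PPARD and RXRA, and MLXIPL within counting error of hypoxia, while the others of the 13 listed were lowest elsewhere. The part of these factors in the difference of ANGPTL8 was not tested. Of the 13 transcription factors listed, 1 was higher and 2 lower in hypoxia than in normoxia, and 0 were higher and 1 lower with oxamate than in hypoxia. Over all measured genes, 10.8% were higher and 8.06% lower in the first comparison, and 5.92% and 5.07% in the second.

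Targets of ChREBP and SREBP1 had 14 measured members of 15. In hypoxia against normoxia 1 was higher and 5 were lower (median log2 ratio -0.78), beside 10.8% and 8.06% of all measured genes. GPAM, which starts glycerolipid synthesis, was 23.5-fold lower (18.4 to 30.5) and PKLR, the liver pyruvate kinase, 4.77-fold lower (3.93 to 5.83), while TXNIP was 4.07-fold higher (3.80 to 4.36). With oxamate against hypoxia, 1 was higher and 2 lower (median -0.05). ME1, malic enzyme, was 3.89-fold higher (3.54 to 4.28), ACACB 3.11-fold lower (2.01 to 4.97), and GPAM had 2 fragments against 67, a ratio of 0.0330 (0.00392 to 0.124). The other 11 of the 14 passed 2-fold in neither direction, beside 5.92% of all measured genes higher and 5.07% lower in this comparison.

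Hepatocyte markers were lower in the same comparison, with 5 of 11 lower, 0 higher and a median log2 ratio of -0.50. In hypoxia against normoxia, 5 of 11 were lower and 1 higher, with a median of -0.81. Of all measured genes, 5.07% were lower in the first comparison and 8.06% in the second. The summed level of the markers was 12612 CPM (fragments after scaling, relative to library size) in hypoxia with oxamate, 21524 CPM in hypoxia and 33514 CPM in normoxia. In bulk RNA, fewer cells of a type and less RNA per cell cannot be told apart, and the part of these markers in the difference of ANGPTL8 was not tested.

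The partners of lipoprotein lipase were measured although the lipase was not. GPIHBP1, which carries the enzyme to the capillary lumen, was listed at 0 in all 3 libraries, and 16 of 20 listed genes had enough fragments in each comparison. In hypoxia against normoxia 3 were higher and 0 lower, with a median log2 ratio of 0.30: the sorting receptor SORL1 was 7.95-fold higher (7.44 to 8.50), PCSK6, a proprotein convertase able to cleave lipases, 2.93-fold higher (2.79 to 3.08), and HSPG2, the proteoglycan perlecan, 2.20-fold higher (2.16 to 2.25). All 3 stayed within 1.5-fold of hypoxia with oxamate, at 0.801, 0.834 and 0.704. Among all measured genes, 10.8% were higher and 8.06% lower in hypoxia than in normoxia.

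With oxamate against hypoxia, 1 partner was higher and 2 were lower, beside 5.92% and 5.07% of all measured genes. The median log2 ratio of the partners was -0.25. PCSK5, a convertase of the same family, was 2.26-fold higher (2.07 to 2.48). SDC1, a heparan sulfate proteoglycan that takes up remnant lipoproteins in liver, had 951 fragments in hypoxia with oxamate, 2748 in hypoxia and 3900 in normoxia, and was 2.61-fold lower than in hypoxia (2.43 to 2.81). APOC3, which like ANGPTL4 and ANGPTL8 restrains lipolysis of triglyceride-rich particles, had 3.53 FPKM in hypoxia with oxamate, 15.2 FPKM in hypoxia and 12.8 FPKM in normoxia. Its level with oxamate was 4.28-fold below that in hypoxia (3.33 to 5.56) and at a ratio of 1.20 in hypoxia against normoxia (1.02 to 1.40), so APOC3 and ANGPTL8 shared the library in which they were low. APOC2, the activator of the lipase, had 26, 42 and 39 fragments, too few for the rule. The hepatic lipase gene LIPC was at 0.505 with oxamate (0.459 to 0.555), just short of 2-fold, and the endothelial lipase gene LIPG had 16, 19 and 22 fragments.

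**Figure D5:**
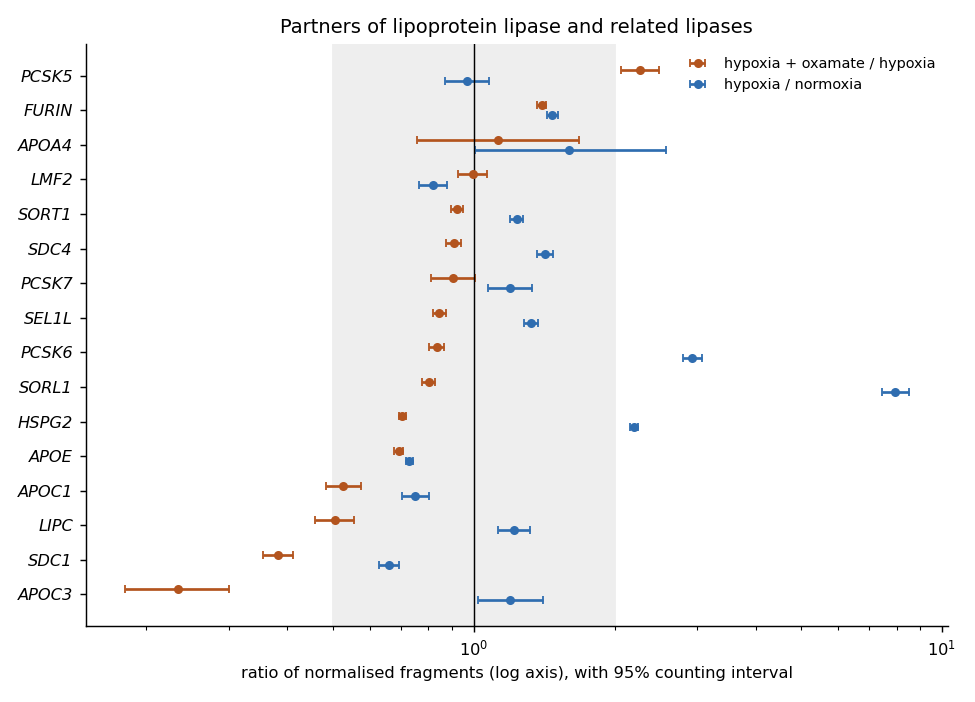
Ratios of normalised fragments with 95% counting intervals on a log axis for the 16 measured partners of lipoprotein lipase, for hypoxia with oxamate over hypoxia and for hypoxia over normoxia, ordered by the first. The grey band spans less than 2-fold: SORL1, PCSK6 and HSPG2 lie right of it in hypoxia, PCSK5 lies right of it with oxamate, and APOC3 and SDC1 lie left of it with oxamate.

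ANGPTL2 acts on cells through an integrin made of the products of ITGA5 and ITGB1, and in blood cells through LILRB2. LILRB2 was listed at 0 in all 3 libraries. ITGA5 had 23.1 FPKM in hypoxia with oxamate, 18.7 FPKM in hypoxia and 11.6 FPKM in normoxia, at a ratio of 1.63 for hypoxia against normoxia (1.54 to 1.71). ITGB1 stood at 1.87 (1.84 to 1.91). ITGAV, a further integrin subunit on the list, was 3.93-fold higher (3.83 to 4.03), the 1 of 3 measured receptor genes past the rule. Among all measured genes, 10.8% were higher in hypoxia than in normoxia.

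Genes with the most similar pattern over the 3 libraries were taken by the smallest distance between centred log2 levels among 12041 protein-coding genes. ANGPTL4 came closest to GHRHR (distance 0.08), then TNNI2 (0.37) and IGFBP1 (0.47). ANGPTL2 came closest to TNNI2 (0.30), PTPRR (0.34) and the acyl-CoA synthetase gene ACSL5 (0.49). For ANGPTL8 they were ADA (0.05), CORO1A (0.06) and ITGAL (0.13), which are genes known from blood cells and had 23, 20 and 78 fragments in hypoxia with oxamate. For LMF1, whose level was lower in the hypoxic libraries by less than 2-fold, they were MDK (0.00045), BAX (0.011) and RMDN3 (0.013). With 3 points per gene such likeness is a description only.

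Markers of cell types that make or hold the lipase were looked at in full. Of 5 adipocyte markers, ADIPOQ and FABP4 were at 0 in all 3 libraries, and the summed level was 3.60, 4.41 and 1.35 CPM in hypoxia with oxamate, hypoxia and normoxia. The 5 muscle markers summed to 1.20, 1.08 and 3.67 CPM, with MYH2, MYH7 and MB at 0. The 6 macrophage markers summed to 61.6, 32.9 and 43.1 CPM, mostly LYZ, with CD163 and MARCO at 0. The 5 endothelial markers summed to 20.1, 8.38 and 1.35 CPM, nearly all of it PECAM1, with KDR at 0. The 6 stellate cell and fibroblast markers summed to 30.3, 35.7 and 30.5 CPM, with DCN at 0. Of the 3 measured among them, 2 were lower with oxamate than in hypoxia: PDGFRB had 110 fragments in hypoxia with oxamate, 438 in hypoxia and 315 in normoxia, and COL1A1 had 51, 130 and 76. LUM, the third, had 580, 412 and 397. Between hypoxia and normoxia, CIDEC of the adipocyte list (103 against 17 fragments) and PECAM1 (230 against 33) were higher in hypoxia. CKM of the muscle list (23 against 93) and CD14 of the macrophage list (22 against 140) were lower. PECAM1 was also higher with oxamate than in hypoxia, with 499 fragments. Of all measured genes, 5.92% were higher and 5.07% lower with oxamate than in hypoxia. In hypoxia against normoxia these shares were 10.8% and 8.06%. The part of these cell types in the results was not tested.

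Among rows of the family outside the 6 genes, ANGPTL1 had 12, 14 and 3 fragments in hypoxia with oxamate, hypoxia and normoxia, ANGPTL7 had 5, 0 and 3, and ANGPTL5 had 0 in each.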

How the data were processed

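The authors deposited 1 table per library with 61533 genes and 1 value per gene in FPKM, as the values themselves show, since the file headers name only the condition. Among the authors' tools, per the submitters' processing notes, were featureCounts 1.5.0-p3 and HISAT2 2.0.5, and the genome was hg38. Strandedness is not given in the sources used here.

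FPKM times exon length was a whole multiple of 1 constant per library for 100% of values above 0 (within 0.01), which gave fragments per gene. Python 3.11.15 with numpy 2.4.6, scipy 1.17.1 and pandas 2.3.3 scaled them by the trimmed mean of M values (30% of log ratios and 5% of mean levels trimmed) over 21987 genes with at least 10 fragments, with factors of 1.01 for hypoxia with oxamate, 1.05 for hypoxia and 0.944 for normoxia. Log2 medians, ranks and distances use a prior count of 0.5. Fragments lack molecular identifiers, so intervals and the floor of 3 fragments cover counting error only. The procedure was tested on data simulated with counting error alone, so that test says nothing of differences between cultures.

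Gene types and exon overlaps came from GENCODE 29, which matched 58356 genes, and promoters from RefSeq. The genes named are the 6 members, overlapping genes, other ANGPTL rows, partners and transcription factors, the 2 highest and 2 lowest of each other list, and the 3 most similar genes per member. The members and the 12 lists were chosen with earlier results of these data known. Some genes that this rule names are not reported here.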

Additional observations from a re-analysis of the deposited data

How the results depend on the processing

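No paired analysis was possible because each condition has 1 library, and for the same reason no library could be left out. The 6 counts of members higher or lower were recomputed under 8 alternatives: total fragments, median-of-ratios size factors and totals without mitochondrial genes as scaling, no filter, FPKM with pseudocounts of 0.1 and 1, at least 10 fragments, and the whole interval past 2-fold. Of these 48 counts, 46 equalled the main count. With at least 10 fragments, ANGPTL6 was also counted as higher against normoxia, giving 3 in place of 2 in hypoxia and in hypoxia with oxamate. The last 2 alternatives alter the rule and not the ratios. Under the other 6, of 90 member ratios 82 lay inside their counting interval, 8 lay outside and 0 changed the sign of a call. The lowest log2 ratios against normoxia came with a pseudocount of 1, at 4.31 for ANGPTL2 and 4.43 for ANGPTL4 in hypoxia with oxamate, beside 6.24 and 5.91. ANGPTL8 in hypoxia with oxamate against hypoxia ranged from -2.57 to -2.19.

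Counts over all genes moved more. A pseudocount of 1 gave 324 higher and 187 lower (813 and 696 in the main setting) for hypoxia with oxamate against hypoxia, 1025 and 1325 (2091 and 2079) for hypoxia with oxamate against normoxia, and 559 and 581 (1468 and 1093) for hypoxia against normoxia. At least 10 fragments gave 2079 and 1866, 4351 higher, and 3618 and 1772 in the same order. The whole interval past 2-fold gave 491 and 307 for hypoxia with oxamate against hypoxia, and 944 and 665 for hypoxia against normoxia. Depth limits ANGPTL6, LPL and the normoxic levels of ANGPTL2 and ANGPTL4, which rest on 32 and 35 fragments.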

Other observations

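How many other genes share the patterns of the 3 main members was counted with limits chosen after the values were seen. At least 20-fold higher in hypoxia than in normoxia and within 1.5-fold of hypoxia with oxamate were 10 protein-coding genes, ANGPTL2 and ANGPTL4 included. By level in hypoxia the first was CA9, with 144 FPKM in hypoxia with oxamate, 115 FPKM in hypoxia and 4.21 FPKM in normoxia, followed by ANGPTL2 and ANGPTL4. ACSL5, which activates fatty acids, came next at 8.49, 10.6 and 0.179 FPKM, and the muscle troponin gene TNNI2 at 6.25, 5.62 and 0.0715 FPKM. The others, SERPINE2, IL36G, GHRHR, PTPRR and TENM4, were below 2.5 FPKM in each library.

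Within 1.5-fold between hypoxia and normoxia and at least 4-fold lower in hypoxia with oxamate than in hypoxia were 19 protein-coding genes. ANPEP, a membrane aminopeptidase, was the most abundant in hypoxia, with 5.96 FPKM in hypoxia with oxamate, 24.9 FPKM in hypoxia and 29.8 FPKM in normoxia. ANGPTL8 and APOC3 followed, both secreted by liver into plasma. TMPRSS6, the liver protease that restrains hepcidin, came next at 1.14, 9.96 and 7.22 FPKM. The group also held ITGAL, ADA, CORO1A and PDCD1, genes known from blood cells, each below 3 FPKM in every library. No replicate shows whether these genes would move together again.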
